A study of Xenopus laevis with 54 samples.

Results

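The pou5f3 genes of the frog Xenopus laevis encode POU domain transcription factors of the same class as mammalian Pou5f1. The deposited table holds 6 rows whose name starts with pou5f3, among 50489 genes. All rows with that name were taken, and the family was chosen with earlier results of these data known. They are 3 paralogs, each present as an L and an S copy, since X. laevis carries a pair of subgenomes named L and S. RefSeq lists the older names oct91 for pou5f3.1.L, oct25 for pou5f3.2.L and oct60 for pou5f3.3.L. In the RefSeq gene order of the Xenopus_laevis_v10.1 assembly, pou5f3.3, pou5f3.2 and pou5f3.1 stand side by side in that order in both the L and the S cluster.

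Pou5f3 proteins bind octamer-type DNA motifs, often beside SoxB1 factors, and in frog blastulae they help open chromatin as the embryo's own genome is first transcribed. They hold cells in an uncommitted state and limit responses to germ layer inducers. As background from earlier Xenopus work, pou5f3.3 is the paralog loaded into the egg, pou5f3.2 is both maternal and made by the embryo, and pou5f3.1 is made by the embryo.

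All embryos were wild type. Each received an injection of 10 nl of EU (ethynyl uridine, which cells build into RNA they are making) at 50 mM, while at the 1-cell stage, and its level in the embryo was about 0.5 mM. They grew at room temperature to blastula stages. RNA that had taken up EU was biotinylated and bound to streptavidin (bead), the unbound rest was kept (flowthrough), and unseparated RNA was sequenced as well (total). Bead and flowthrough RNA had 4 replicates at each of 5, 6, 7, 8 and 9 hours post fertilization (hpf), replicates 1 and 2 from experiment 1 and replicates 3 and 4 from experiment 2. Total RNA had 4 replicates at 5 hpf and 2, from experiment 1, at each later time, and 2 clutches of unfertilized wild-type eggs without EU came from experiment 2. Each experiment used 2 clutches as its replicates. The main fits treated libraries of one clutch at different times, and in different fractions, as separate. Their p-values therefore describe spread among libraries, not among the few clutches. A fit with the replicate number as a block was run as an alternative. The labels name no bead sample from embryos without EU, so RNA that sticks to beads unlabelled was not measured.

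The values are normalized read numbers, rounded to whole numbers by the authors, and are not corrected for gene length. A level is therefore compared only with the same gene's level in other samples. Experiment 2's bead libraries listed 12814 to 18990 genes above 0, against 23212 to 28348 in experiment 1's bead libraries and 21965 to 25064 in flowthrough RNA, so zeros and low values in those bead libraries are less certain. Beads and flowthrough were scaled as separate libraries, and their values cannot be added up to total RNA. In RNA of whole embryos, fewer cells with a transcript and less transcript per cell cannot be told apart. The L and S copies are similar in sequence, and how well reads were split between them is not given in the sources used here. Follicle, ovary and blood markers summed to 2 to 279 over 18 rows in any library, with 5 of the rows at 0 in all libraries. Of these rows amh.S was not near 0, with a median of 81.5 and a highest value of 266. The other rows had medians of at most 2. Egg and early embryo markers summed to 6390 to 18111 over 18 rows.

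Both copies of pou5f3.2 and of pou5f3.1 were higher on beads at 9 hpf than at 5 hpf, and neither copy of pou5f3.3 passed the test. A gene is called here at a Benjamini-Hochberg adjusted p under 0.05, over all genes tested with limma, and at least a 2-fold difference. All 6 genes were tested in bead RNA, where 5.83% of 20703 genes were called higher at 9 than at 5 hpf and 1.43% lower. Set against flowthrough RNA at 9 hpf, the same 4 genes were higher on beads, where 9.35% of 21544 genes were called higher and 18.9% lower. The genes called lower numbered 4075 over both experiments, 81 in experiment 1 alone, 4076 in experiment 2 alone and 967 with no experiment term. Quantile normalization gave 2296 higher and 2204 lower in place of 2014 and 4075, and 1277 higher and 562 lower in place of 1208 and 296 between 9 and 5 hpf on beads. Both comparisons use the 9 hpf bead libraries and are not independent of each other. In total RNA at 9 hpf the same 4 genes were also higher than at 5 hpf, with 6.25% of 21534 genes called higher and 2% lower.

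**Figure D1:**
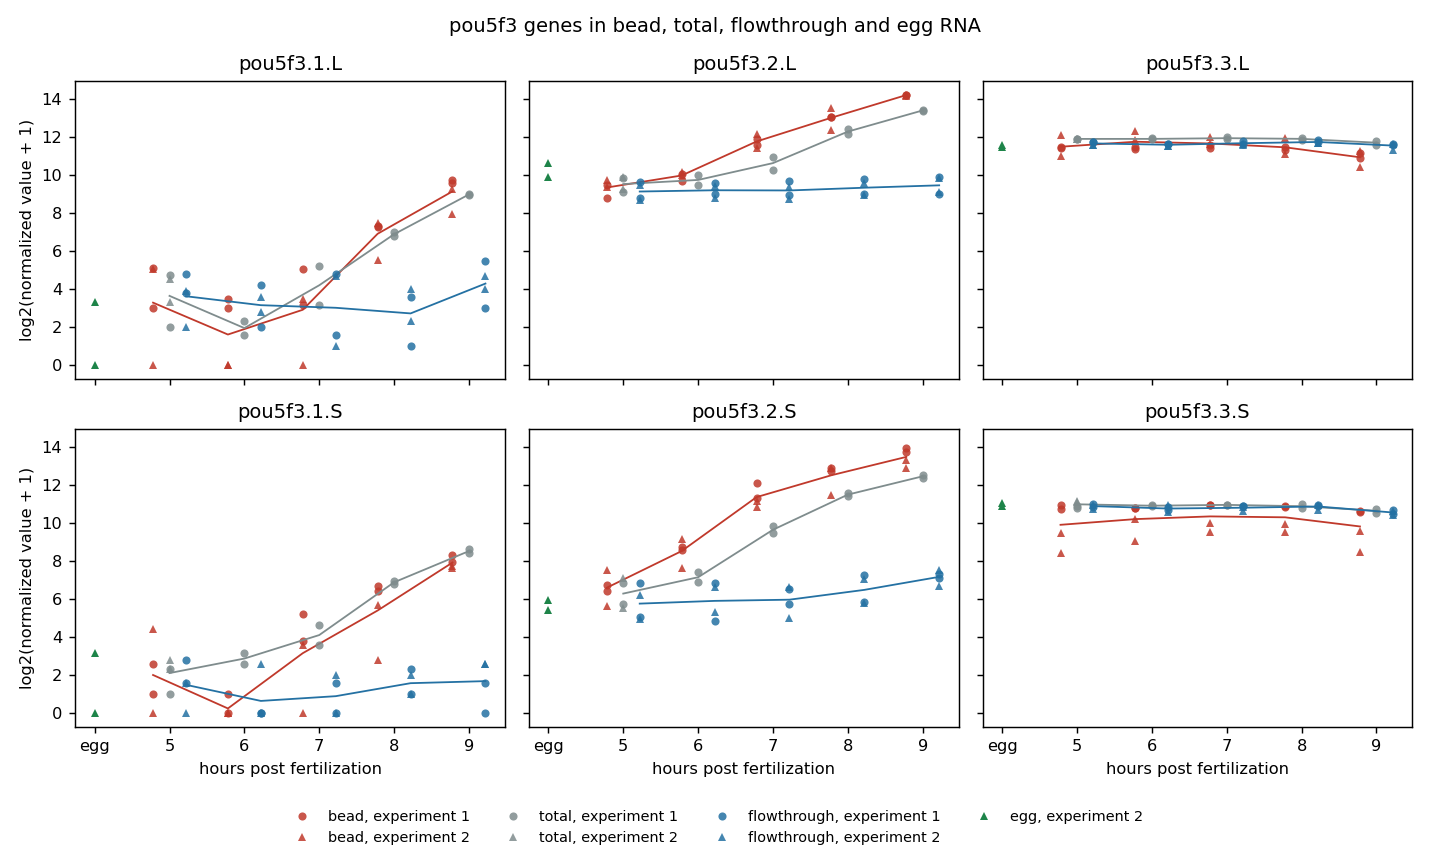
Level of each pou5f3 gene as log2(normalized value + 1) in each library (points), against hours post fertilization with eggs at the left; lines join group means and symbols give the experiment. Bead and total RNA of pou5f3.1 and pou5f3.2 climb away from flowthrough RNA, with pou5f3.2.L on beads at 18799 to 19480 at 9 hpf, whereas pou5f3.3 shows no such climb; for pou5f3.3.S the bead points of experiment 2, at 344 to 1194, lie below those of experiment 1, at 1543 to 2022.

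The maternal paralog pou5f3.3 was present in eggs and was still present, in all 3 kinds of embryo RNA, at 9 hpf. In total RNA, pou5f3.3.L stood at 3597 and 3145 at 9 hpf, against 3886, 3850, 3904 and 3802 at 5 hpf. Eggs had 3077 and 2830. The 9 hpf values lay below all 5 hpf values and above both eggs, a log2 difference of -0.20 ± 0.08 (SE) from 5 hpf (limma adjusted p = 0.164) and of 0.18 ± 0.11 from eggs (adjusted p = 0.384).

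Flowthrough RNA held pou5f3.3.L at 3204, 3118, 3197 and 2622 at 9 hpf, against 3501, 3437, 3066 and 3115 at 5 hpf. The times overlapped, and the log2 difference was -0.11 ± 0.05 (limma adjusted p = 0.116), with -0.13 in experiment 1 and -0.09 in experiment 2. On beads the gene had 2276, 1932, 2527 and 1367 at 9 hpf, against 2860, 2749, 4378 and 2057 at 5 hpf. The bead values overlapped between times as well, with a log2 difference of -0.55 ± 0.23 (limma adjusted p = 0.163). Within experiment 1 it was -0.42, beside a median of -0.0032 over all genes tested there, and within experiment 2 it was -0.69, beside a median of -0.59.

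At 9 hpf, the bead level of pou5f3.3.L lay below its flowthrough level in all 4 replicates, and the groups did not overlap. The log2 difference of -0.62 ± 0.18 had an adjusted p of 0.00918 (limma) but was under 2-fold, so it was not called. It was -0.59 in experiment 1 and -0.64 in experiment 2, while the median over all genes tested was 0.016 in experiment 1, -1.50 in experiment 2 and -0.69 over both. After quantile normalization it was -1.09 and was called lower (adjusted p = 3.48e-07), beside a median of -0.28. At 5 hpf the same difference was -0.17 ± 0.18 (limma adjusted p = 0.839), with -0.31 in experiment 1 and -0.04 in experiment 2.

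The S copy of the maternal paralog, pou5f3.3.S, stood in total RNA at 1499 and 1731 at 9 hpf, against 1778, 1916, 2206 and 2333 at 5 hpf. Eggs had 1943 and 2124. All 9 hpf total RNA values lay below those of 5 hpf and of eggs, with log2 differences of -0.20 ± 0.10 from 5 hpf (limma adjusted p = 0.288) and -0.04 ± 0.14 from eggs (adjusted p = 0.921), fitted with the experiment as a term. In flowthrough RNA it had 1435, 1635, 1382 and 1629 at 9 hpf, against 1869, 2089, 1750 and 1965 at 5 hpf. These groups did not overlap, and the log2 difference of -0.34 ± 0.08 had an adjusted p of 0.00643 (limma) without reaching 2-fold; it was -0.37 in experiment 1 and -0.31 in experiment 2. For scale, 3.94% of 19277 genes were called lower in flowthrough RNA at 9 than at 5 hpf, and 0.202% higher.

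Bead RNA of pou5f3.3.S differed between the experiments. At 9 hpf it had 1612 and 1543 in experiment 1 and 785 and 352 in experiment 2, against 1752 and 2022 in experiment 1 and 718 and 344 in experiment 2 at 5 hpf. Across all 5 times, the experiment 1 bead libraries lay at 1543 to 2022 and those of experiment 2 at 344 to 1194. The change between 9 and 5 hpf was -0.09 ± 0.29 on the log2 scale (limma adjusted p = 0.896), with -0.25 in experiment 1 and 0.08 in experiment 2. Against flowthrough RNA at 9 hpf the log2 difference was -0.73 ± 0.22 (limma adjusted p = 0.0102), made up of 0.04 in experiment 1 and -1.51 in experiment 2. At 5 hpf it was -0.98 ± 0.22 (limma adjusted p = 0.00544), with -0.07 in experiment 1 and -1.90 in experiment 2. The median over all genes tested split between the experiments too, at 0.016 in experiment 1 and -1.50 in experiment 2 at 9 hpf, and at 0 and -0.51 at 5 hpf. The bead libraries of experiment 2 are those with fewer genes above 0; the part this plays was not tested.

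The paralog pou5f3.2 was present in eggs and rose on beads and in total RNA. In eggs, pou5f3.2.L had 949 and 1601 and pou5f3.2.S had 62 and 42. Total RNA at 5 hpf held pou5f3.2.L at 921, 550, 954 and 627. The log2 difference of 5 hpf embryos from eggs was -0.67 ± 0.35 (limma adjusted p = 0.469), in a comparison that called 0.237% of genes higher and 0.283% lower. For pou5f3.2.S, total RNA at 5 hpf had 52, 113, 45 and 137, and the log2 difference from eggs was 0.61 ± 0.49 (limma adjusted p = 0.681).

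On beads, the mean of pou5f3.2.L was higher at each later time. Its 4 bead replicates had 724, 444, 857 and 663 at 5 hpf. They had 1058, 823, 1173 and 1039 at 6 hpf, then 3904, 3053, 2767 and 4615 at 7 hpf. From 7 hpf on every bead library lay above every 5 and 6 hpf library. The bead replicates had 8613, 8647, 5409 and 12144 at 8 hpf, and 19480, 18939, 18799 and 19276 at 9 hpf. At 9 hpf the replicates were close together, with a mean of 19124 ± 311 (SD, n = 4).

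The log2 difference of pou5f3.2.L between 9 and 5 hpf on beads was 4.87 ± 0.21 (limma adjusted p = 1.71e-12), with 5.08 in experiment 1 and 4.66 in experiment 2. At 7 against 5 hpf it was 2.42 ± 0.21 (limma adjusted p = 3.1e-07), where 1.25% of genes were called higher. The 6 against 5 hpf difference was 0.63 ± 0.21 (adjusted p = 1), where 0.101% of genes were called higher. Step by step, the gain was 1.79 from 6 to 7 hpf (adjusted p = 0.000295), 1.25 from 7 to 8 hpf (adjusted p = 0.0125) and 1.19 from 8 to 9 hpf (adjusted p = 0.0307), in limma fits that called 0.609%, 0.111% and 0.0435% of genes higher. Within single experiments the last 2 steps had the same direction but did not pass, with adjusted p of 0.0806 and 0.124 in experiment 1 and 0.954 and 0.366 in experiment 2. The 7 to 8 hpf step was also lost without replicate 1, 2 or 4 (adjusted p = 0.316, 0.359 and 0.0793), and the 8 to 9 hpf step without replicate 1, 2 or 3 (0.383, 0.326 and 0.162). Without replicate 1 or 2, and in experiment 2 alone, 0 of all genes were called in either step.

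The S copy, pou5f3.2.S, began lower against its own later level. On beads it had 87, 108, 49 and 187 at 5 hpf and 430, 390, 198 and 566 at 6 hpf. At 7 hpf the bead values were 4519, 2539, 1875 and 2318. All 6 hpf bead values already lay above all 5 hpf ones, and 7 hpf lay above both. Beads then had 7728, 6926, 2924 and 7784 at 8 hpf, and 15930, 13854, 7768 and 10327 at 9 hpf.

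The log2 difference of pou5f3.2.S between 9 and 5 hpf on beads was 6.89 ± 0.37 (limma adjusted p = 4.48e-11), with 7.25 in experiment 1 and 6.53 in experiment 2. It was also the one pou5f3 gene called at 6 against 5 hpf, at 1.93 ± 0.37 (limma adjusted p = 0.0372), with 2.07 in experiment 1 and 1.79 in experiment 2. That early call was lost without replicate 1 (adjusted p = 0.806), without replicate 2 (0.819) in experiment 2 alone (adjusted p = 1), with no experiment term (0.149), with no filter on low values (0.0549) and after quantile normalization (0.161), while its size stayed between 1.81 and 2.04 when any 1 replicate was left out. The gain from 6 to 7 hpf was 2.84 (limma adjusted p = 0.000523; 0.0517 without replicate 1), and the later steps of 1.15 and 0.97 did not pass (adjusted p = 0.618 and 0.392).

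Both copies also rose in total RNA. Total RNA of pou5f3.2.L had 1027 and 725 at 6 hpf, 2026 and 1257 at 7 hpf, 5476 and 4644 at 8 hpf, and 11051 and 10800 at 9 hpf. Total RNA of pou5f3.2.S had 119 and 169 at 6 hpf, 925 and 705 at 7 hpf, 3103 and 2734 at 8 hpf, and 5954 and 5431 at 9 hpf. At 9 against 5 hpf the log2 difference was 3.94 ± 0.35 for the L copy (limma adjusted p = 7.07e-05) and 6.19 ± 0.49 for the S copy (adjusted p = 3.53e-05). At 7 hpf the S copy was already called in total RNA, at 3.38 ± 0.49 (limma adjusted p = 0.00895), where 1.12% of genes were called higher. The L copy at 1.16 ± 0.35 was not (adjusted p = 0.343; 0.0182 with the replicate number as a block). Against eggs, 9 hpf embryos were higher by 3.27 ± 0.49 for the L copy (limma adjusted p = 0.00311) and by 6.81 ± 0.69 for the S copy (adjusted p = 0.000396), where 4.89% of genes were called higher and 3.28% lower. Eggs come from experiment 2 alone, so the difference of 9 hpf from eggs has no within-experiment value and is linked through 5 hpf. Experiment 2 has no total RNA of embryos after 5 hpf, so within-experiment values of the changes from 5 hpf come from experiment 1 alone. These calls were lost when replicate 1 or 2 was left out, which leaves 1 library at each later time; at 9 against 5 hpf the difference was then 4.29 and 3.58 for the L copy (adjusted p = 0.129 and 0.109) and 5.57 and 6.81 for the S copy (0.144 and 0.109).

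Flowthrough RNA, which holds what was not captured, held pou5f3.2.L at all times. It had 789, 442, 711 and 411 at 5 hpf, 845, 497, 671 and 423 at 7 hpf, and 958, 509, 927 and 557 at 9 hpf. The times overlapped, but each clutch had more at 9 than at 5 hpf. The log2 difference was 0.33 ± 0.30 (limma adjusted p = 0.546), with 0.29 to 0.37 when any 1 replicate was left out. With the replicate number as a block it was 0.33 ± 0.07 (adjusted p = 0.000199), under 2-fold. Flowthrough pou5f3.2.S had 32, 113, 30 and 75 at 5 hpf, 53, 91, 31 and 98 at 7 hpf, and 136, 161, 104 and 188 at 9 hpf. This copy too was higher at 9 than at 5 hpf in each clutch. The log2 difference was 1.41 ± 0.53 (limma adjusted p = 0.0774), with 1.28 in experiment 1 and 1.54 in experiment 2. With the replicate number as a block, which compares each clutch with itself, it was 1.41 ± 0.20 (adjusted p = 3.66e-07).

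**Figure D2:**
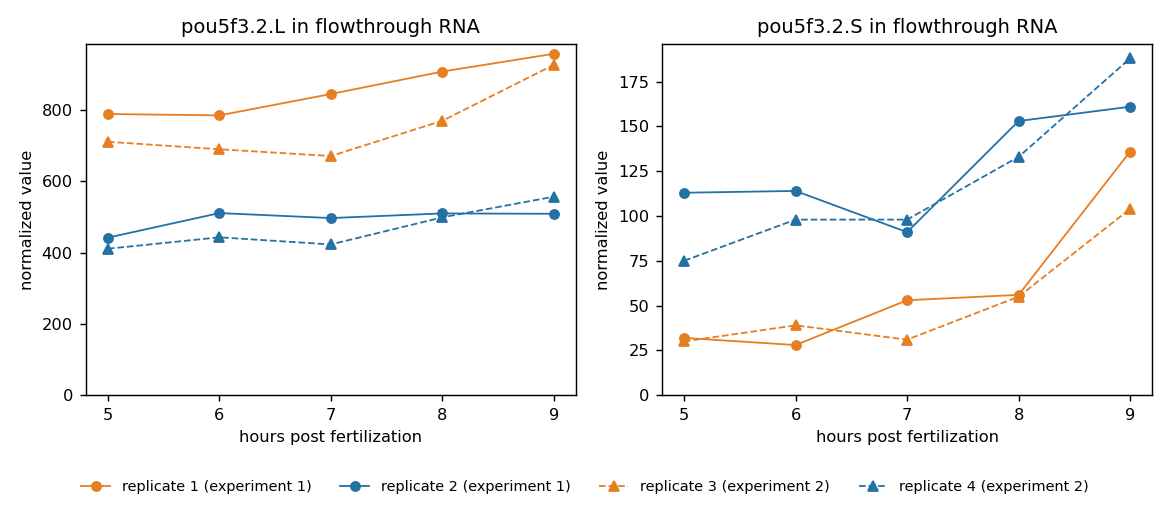
Normalized value of pou5f3.2.L (left) and pou5f3.2.S (right) in flowthrough RNA against hours post fertilization, 1 line for each of the 4 replicates, with the axis starting at 0. Replicates 1 and 3 lie above replicates 2 and 4 for the L copy at all 5 times, and below them for the S copy.

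The flowthrough level differed between clutches, in opposite directions for the copies. In flowthrough RNA, pou5f3.2.L ranged over the 5 times at 785 to 958 in replicate 1 and 671 to 927 in replicate 3, and at 442 to 511 in replicate 2 and 411 to 557 in replicate 4. Flowthrough pou5f3.2.S ranged at 28 to 136 in replicate 1 and 30 to 104 in replicate 3, and at 91 to 161 in replicate 2 and 75 to 188 in replicate 4. Total RNA at 5 hpf had the same order, with pou5f3.2.L at 921 and 954 in replicates 1 and 3 and 550 and 627 in replicates 2 and 4, and pou5f3.2.S at 52 and 45 in replicates 1 and 3 and 113 and 137 in replicates 2 and 4. By 9 hpf the 4 bead values of pou5f3.2.L, 18799 to 19480, no longer showed that order. The replicates were set side by side after their values were seen, and no test was made.

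Bead and flowthrough values of pou5f3.2 overlapped at 5 hpf and were far apart at 9 hpf. At 5 hpf the log2 difference of beads from flowthrough was 0.21 ± 0.27 for the L copy (limma adjusted p = 0.904; -0.06 in experiment 1, 0.48 in experiment 2) and 0.84 ± 0.49 for the S copy (adjusted p = 0.492; 0.68 in experiment 1, 1.00 in experiment 2). None of the pou5f3 genes was called at 5 hpf, in a comparison that called 0.436% of genes higher on beads and 1.47% lower. The median log2 difference over all genes tested there was -0.28, and a difference that is not called does not show equal levels. At 6 hpf the S copy was higher on beads by 2.62 ± 0.49 (limma adjusted p = 0.000708), with 2.83 in experiment 1 and 2.42 in experiment 2, and the L copy differed by 0.78 ± 0.27 (adjusted p = 0.086), with 0.56 in experiment 1 and 1.00 in experiment 2. The S copy's call at 6 hpf was lost without replicate 1 (adjusted p = 0.0727) and in experiment 1 or 2 alone (adjusted p = 0.0917 and 0.137). At that time 0.919% of genes were called higher and 2.49% lower.

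At 9 hpf, pou5f3.2.L was higher on beads by 4.75 ± 0.27 (limma adjusted p = 3.97e-15; 4.78 in experiment 1, 4.73 in experiment 2). The difference for pou5f3.2.S was 6.32 ± 0.49 (adjusted p = 4.64e-12; 6.64 in experiment 1, 5.99 in experiment 2). The change of this difference between 9 and 5 hpf was itself tested, and was 4.54 ± 0.38 for the L copy (limma adjusted p = 2.58e-10; 4.84 in experiment 1, 4.25 in experiment 2) and 5.48 ± 0.69 for the S copy (adjusted p = 7.44e-07; 5.96 in experiment 1, 4.99 in experiment 2). That test called 4.6% of genes higher and 0.162% lower.

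The early level can be set against the later level in the clutches sampled at both times. Total RNA at 5 hpf came to 8.33% of total RNA at 9 hpf in replicate 1 and 5.09% in replicate 2 for pou5f3.2.L, and to 0.873% in replicate 1 and 2.08% in replicate 2 for pou5f3.2.S. For pou5f3.3.L the 5 hpf level was 108% and 122% of that at 9 hpf, and for pou5f3.3.S 119% and 111%. The mean of the eggs was 11.7% of mean total RNA at 9 hpf for pou5f3.2.L, 0.913% for pou5f3.2.S, 87.6% for pou5f3.3.L and 126% for pou5f3.3.S, across different experiments. These percentages compare levels and are not shares of surviving maternal molecules, since decay was not measured.

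The paralog pou5f3.1 was low up to 7 hpf, and its means on beads and in total RNA were higher at 8 and 9 hpf. Eggs had pou5f3.1.L at 0 and 9 and pou5f3.1.S at 0 and 8. On beads, pou5f3.1.L had 34, 7, 32 and 0 at 5 hpf, 10, 7, 0 and 0 at 6 hpf, 32, 8, 10 and 0 at 7 hpf, 156, 161, 46 and 179 at 8 hpf, and 873, 775, 248 and 620 at 9 hpf. Every bead library at 8 hpf was above every earlier one, and every one at 9 hpf was above those at 8 hpf. Bead pou5f3.1.S had 1, 5, 21 and 0 at 5 hpf, 1, 0, 0 and 0 at 6 hpf, 37, 13, 11 and 0 at 7 hpf, 84, 104, 6 and 51 at 8 hpf, and 326, 251, 213 and 201 at 9 hpf. Its 8 hpf values still overlapped earlier ones, and its 9 hpf values did not.

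At 9 against 5 hpf on beads the log2 difference was 5.86 ± 1.16 for pou5f3.1.L (limma adjusted p = 0.00155; 5.62 in experiment 1, 6.10 in experiment 2) and 5.92 ± 1.15 for pou5f3.1.S (adjusted p = 0.00129; 6.37 in experiment 1, 5.47 in experiment 2). The call of pou5f3.1.L was lost without replicate 2 (adjusted p = 0.066) and in experiment 2 alone (0.263), and that of pou5f3.1.S without replicate 1 (0.0647) and in experiment 2 alone (0.309). For both copies the 5 hpf bead value of replicate 4 was 0, in experiment 2, whose bead zeros are less certain. The size of these changes depends on that 0 and on the log2(value + 1) scale, and is uncertain. At 8 against 5 hpf, pou5f3.1.L differed by 3.63 ± 1.16 (limma adjusted p = 0.113; 3.25 in experiment 1, 4.00 in experiment 2) and pou5f3.1.S by 3.40 ± 1.15 (adjusted p = 0.154; 4.77 in experiment 1, 2.02 in experiment 2), where 3.16% of genes were called higher and 0.0435% lower. In experiment 1 alone both passed at 8 hpf, with adjusted p of 0.0342 and 0.00328. Without replicate 3 of both times they passed too, at 4.67 (adjusted p = 0.0353) for pou5f3.1.L and 5.08 (0.00752) for pou5f3.1.S.

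Flowthrough RNA did not show the gain. There, pou5f3.1.L had 44, 7, 25 and 15 at 9 hpf, against 27, 13, 14 and 3 at 5 hpf, a log2 difference of 0.67 ± 0.92 (limma adjusted p = 0.719; -0.06 in experiment 1, 1.40 in experiment 2). The flowthrough values of pou5f3.1.S were 2, 0, 5 and 5 at 9 hpf, against 2, 6, 0 and 2 at 5 hpf. They were too low to be tested in flowthrough RNA alone. In the fit with beads, pou5f3.1.S passed the filter only through its bead libraries. Its differences from flowthrough rest on the log2(value + 1) scale, and their size and p are uncertain. At 8 hpf pou5f3.1.L had 46 to 179 on beads and 1 to 15 in flowthrough RNA, and pou5f3.1.S had 6 to 104 and 1 to 4. Beads then exceeded flowthrough by 4.19 ± 1.00 for pou5f3.1.L (limma adjusted p = 0.00293) and by 3.83 ± 0.92 for pou5f3.1.S (adjusted p = 0.00328). At 9 hpf beads exceeded flowthrough by 4.85 ± 1.00 for pou5f3.1.L (limma adjusted p = 0.000413; 5.44 in experiment 1, 4.27 in experiment 2, where the adjusted p was 0.0847) and by 6.24 ± 0.92 for pou5f3.1.S (adjusted p = 2.89e-06; 7.37 in experiment 1, 5.11 in experiment 2).

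The change of the bead to flowthrough difference between 9 and 5 hpf was 5.19 ± 1.41 for pou5f3.1.L (limma adjusted p = 0.0207; 5.68 in experiment 1, 4.70 in experiment 2) and 5.73 ± 1.31 for pou5f3.1.S (adjusted p = 0.00371; 7.78 in experiment 1, 3.68 in experiment 2). The call of pou5f3.1.L was lost without replicate 1, 2 or 4 (adjusted p = 0.0725, 0.196 and 0.0643) and in experiment 1 or 2 alone (0.0759 and 0.427). That of pou5f3.1.S was lost without replicate 1 or 2 (adjusted p = 0.11 and 0.127) and in experiment 2 alone (0.525). The value for pou5f3.1.S also rests on flowthrough levels near 0, and its size and p are uncertain. For pou5f3.3.L and pou5f3.3.S this change was -0.44 ± 0.25 and 0.25 ± 0.31 (limma adjusted p = 0.383 and 0.744), with -0.28 and 0.11 in experiment 1 and -0.60 and 0.39 in experiment 2.

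In total RNA, pou5f3.1.L had 496 and 520 at 9 hpf, against 26, 3, 22 and 9 at 5 hpf, and pou5f3.1.S had 395 and 347 at 9 hpf, against 1, 4, 6 and 4 at 5 hpf. The groups were far apart for both copies. The log2 difference was 5.61 ± 1.16 for the L copy (limma adjusted p = 0.00981) and 6.88 ± 0.89 for the S copy (adjusted p = 0.000549). Against eggs, the 9 hpf embryos were higher by 7.88 ± 1.64 (limma adjusted p = 0.0141) and 7.85 ± 1.26 (adjusted p = 0.00353). The S copy passed the filter in this fit only through its libraries of 7 hpf and later. Both copies were near 0 in eggs, and the S copy also at 5 hpf. The size and p of all differences from those levels rest on the log2(value + 1) scale and are uncertain. At 5 hpf the difference from eggs was 2.26 ± 1.16 for the L copy and 0.98 ± 0.89 for the S copy (adjusted p = 0.46 and 0.728). At 7 hpf, total RNA had 37 and 8 for the L copy and 24 and 11 for the S copy. Those S copy values lay above all its egg, 5 and 6 hpf values. The S copy's difference of 7 from 5 hpf, 2.45 ± 0.89, was not called (limma adjusted p = 0.628). Total RNA at 8 hpf, with 2 libraries, had 128 and 109 for the L copy and 124 and 112 for the S copy. The log2 differences of 8 from 5 hpf were 3.52 ± 1.16 (limma adjusted p = 0.155) and 5.23 ± 0.89 (adjusted p = 0.0056). The calls at 9 hpf were lost without replicate 1 or 2, at 7.03 and 4.20 for the L copy and 6.12 and 7.63 for the S copy against 5 hpf (adjusted p = 0.292, 0.466, 0.314 and 0.209), and that of the L copy against eggs also without replicate 3 (adjusted p = 0.0574).

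**Figure D3:**
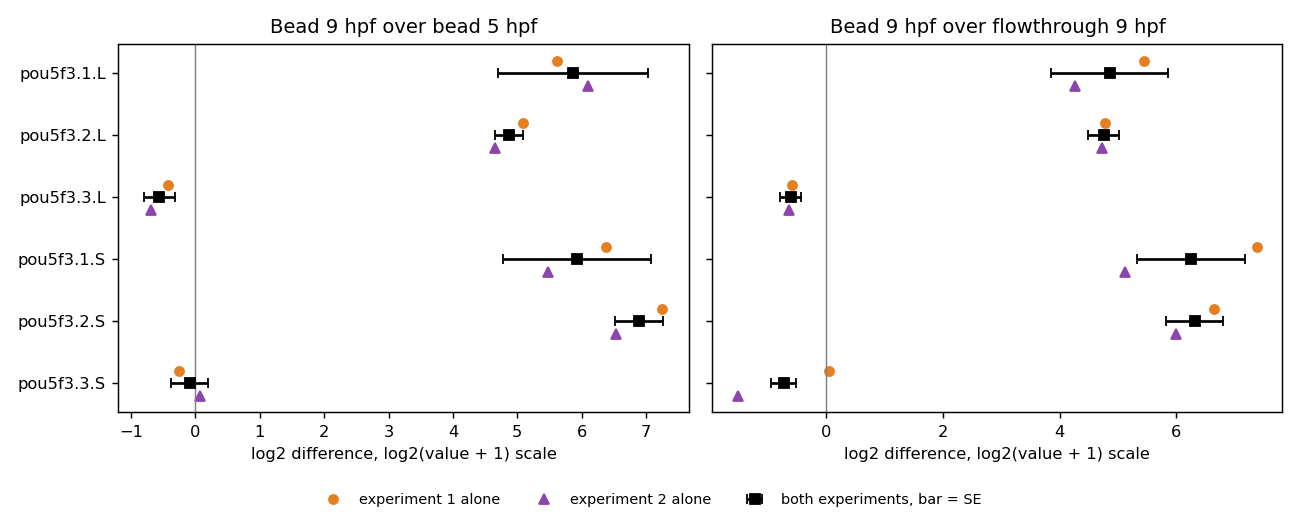
Log2 difference of each pou5f3 gene on beads at 9 hpf from beads at 5 hpf (left) and from flowthrough RNA at 9 hpf (right), as the fit over both experiments with its SE (black squares) and in each experiment alone (circles and triangles). The black squares of both copies of pou5f3.1 and pou5f3.2 lie at 4.75 or more, with the widest bars for pou5f3.1, and pou5f3.3 lies near or below 0.

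Paralogs were compared with each other through the log2 ratio of a pair of them within each library, (value + 1) over (value + 1), which cancels the library's scaling except for genes near 0. Over 30 such tests (15 pairs, each for 9 against 5 hpf on beads and for beads against flowthrough at 9 hpf), 18 were called. The 30 tests share genes and are not independent. A 4 against 4 exact permutation test cannot give a p below 0.0286. Because 18 tests tied at that p, it became 0.0476 after adjustment over the 30. All 16 ratios of a pou5f3.1 or pou5f3.2 gene to a pou5f3.3 gene reached that p, and were higher on 9 hpf beads by 4.96 to 7.44. Among them, those of pou5f3.1.S rest on its 9 hpf bead values of 201 to 326. That gene had only 0 to 21 on beads at 5 hpf and 0 to 5 in flowthrough RNA at 9 hpf. The size and p of its ratios to pou5f3.3 are therefore uncertain. They ran from 6.01 to 6.98, and from 4.16 to 5.03 with a pseudocount of 10. With libraries paired by replicate number, 0 of the 16 passed (exact permutation test, adjusted p = 0.197), since 4 pairs cannot give a p under 0.125. The 8 ratios of a pou5f3.1 gene to a pou5f3.2 gene differed by -1.46 to 1.49, with adjusted p of 0.0902 to 0.916. They depended on the pseudocount: with 10 in place of 1 all 8 were negative, at -2.67 to -0.24, and 3 were called, each a ratio to pou5f3.2.S (adjusted p = 0.0408).

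The copies of pou5f3.2 did not change alike. The log2 ratio of pou5f3.2.L to pou5f3.2.S was 0.73 ± 0.45 on beads at 9 hpf and 2.75 ± 1.05 on beads at 5 hpf (SD, n = 4 each), a difference of -2.02 (exact permutation test, 2-sided, p = 0.0286, adjusted p = 0.0476; -2.17 in experiment 1, -1.87 in experiment 2). In flowthrough RNA at 9 hpf the ratio was 2.29 ± 0.80, from which the 9 hpf beads differed by -1.56 (exact permutation test, p = 0.0286, adjusted p = 0.0476; -1.86 in experiment 1, -1.27 in experiment 2). The groups did not overlap in either comparison. Both adjusted p-values were this low only because the 16 ratios to pou5f3.3 tied at the same smallest p. The uncertain ratios of pou5f3.1.S are among those 16. With libraries paired by replicate number, the adjusted p was 0.197 for both.

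For the other paralogs the copies' ratio did not pass. The ratio of pou5f3.1.L to pou5f3.1.S differed by -0.06 between 9 and 5 hpf on beads (exact permutation test, adjusted p = 0.971; -0.75 in experiment 1, 0.63 in experiment 2) and by -1.39 between beads and flowthrough at 9 hpf (adjusted p = 0.163; -1.93 in experiment 1, -0.85 in experiment 2). That of pou5f3.3.L to pou5f3.3.S differed by -0.47 (exact permutation test, adjusted p = 0.679; -0.16 in experiment 1, -0.77 in experiment 2) and 0.12 (adjusted p = 0.857; -0.63 in experiment 1, 0.87 in experiment 2).

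**Figure D4:**
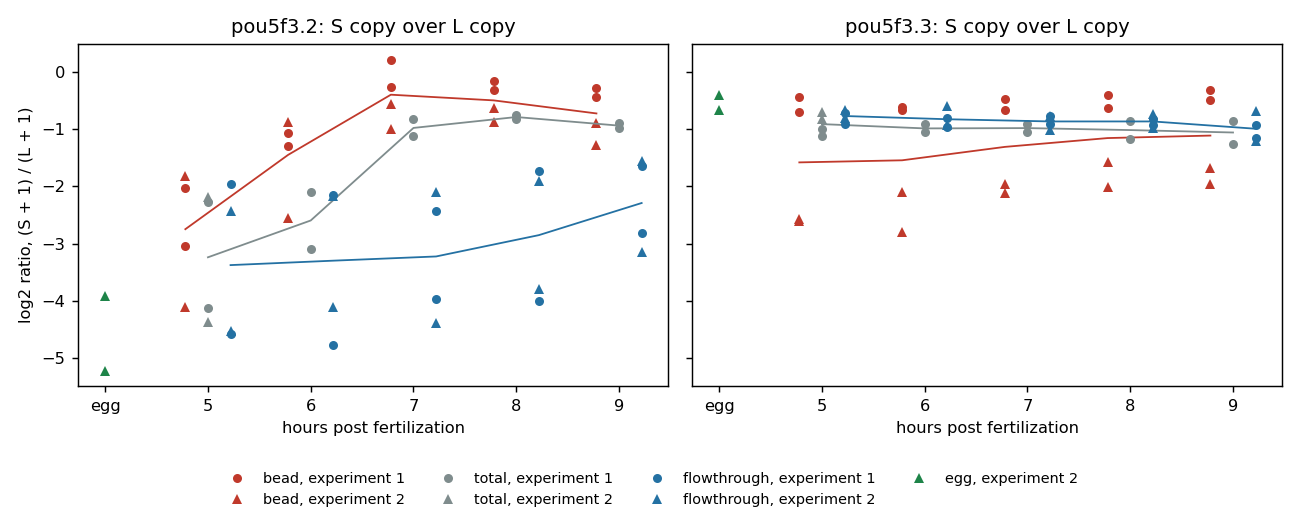
Log2 ratio of the S copy to the L copy, (value + 1) over (value + 1), of pou5f3.2 (left) and pou5f3.3 (right) in each library against hours post fertilization, with lines through group means. For pou5f3.2 the mean ratio on beads is -2.75 at 5 hpf, peaks at -0.40 at 7 hpf and is -0.73 at 9 hpf, and it is -4.57 in eggs; for pou5f3.3 the bead points of experiment 2 lie below all others.

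On beads and in total RNA, the mean S to L ratio of pou5f3.2 rose up to 7 hpf and moved less afterwards. Some 6 hpf bead libraries already lay within the 9 hpf bead range of -1.27 to -0.29, and the hour of the rise was not tested. The mean log2 ratio on beads was -2.75 at 5 hpf, -1.45 at 6 hpf, -0.40 at 7 hpf, -0.50 at 8 hpf and -0.73 at 9 hpf. Total RNA had -3.24 at 5 hpf, -2.60 at 6 hpf, -0.98 at 7 hpf, -0.79 at 8 hpf and -0.94 at 9 hpf, and eggs had -4.57. Flowthrough RNA had -3.37 at 5 hpf, -3.30 at 6 hpf, -3.22 at 7 hpf, -2.85 at 8 hpf and -2.29 at 9 hpf, and the ratio was higher at 9 than at 5 hpf in all 4 replicates, a change that was not tested. The copies may differ in length, so that only changes in this ratio, not its level, can be read.

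The genes whose group means were most like those of each pou5f3 gene were taken from 14464 named genes by Pearson's r over the 16 groups. The groups share libraries' scaling and the time course, and no p is given. Most like pou5f3.2.L were mafb.L (a bZIP transcription factor, r = 0.988), post3.S (0.982), grhl3.L (a grainyhead-like factor, 0.98) and krt70.S (a keratin, 0.979). Those most like pou5f3.2.S were sox17a.S (an endodermal HMG box factor, 0.993), has1.S (a hyaluronan synthase, 0.993), grhl3.S (0.991) and klhdc8a.L (0.989). For pou5f3.1.L they were foxa4.S, sh2d3c.L, hunk.S and lin28a.S (r = 0.955 to 0.958), and for pou5f3.1.S cdc25b.S, fzd8.L, ccng1.L and lpar6.S (0.967 to 0.976). None of these 16 matches had a mean above 31.5 in eggs. For pou5f3.3.L they were ywhag.L, ccdc71l.L, spsb3.S and crls1.S (0.929 to 0.938), whose ranks fell to 1531 to 4967 without experiment 2. Group means of pou5f3.3.L ran only from 2025.5 to 3968.5, while its replicate 4 bead values ran from 1367 to 5122 over the times. For pou5f3.3.S they were zfand2b.L, ppp2r1a.L, dipk1b.L and mat2a.S (0.964 to 0.978), whose ranks fell to 49 to 2342 without experiment 2. The ranks of the matches of pou5f3.1 and pou5f3.2 were then 1 to 140. Leaving out experiment 2 also removed the eggs, so these ranks rest on 15 groups. What the loss of the eggs alone changed was not tested.

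A list of Pou5f3 partner factors held Sox, Ventx, Foxh1, T-box, Klf, Zic and other genes. It also held genes such as gdf3, lin28a and lin28b that do not encode transcription factors. Of its 73 tested rows, 28 were higher on beads at 9 than at 5 hpf and 1 was lower. The higher rows included gdf3.S, lin28a.L, lin28a.S and L and S rows of related Ventx genes. They are therefore not 28 separate partner transcription factors. The comparison called 5.83% of all genes higher and 1.43% lower. The lower row was gmnn.L, at -1.66 ± 0.31 (limma adjusted p = 0.000823). The list was chosen with earlier results of these data known. The median log2 difference was 0.79, beside -0.33 over all genes tested. Among them, foxh1.2.L, a forkhead partner of Smad proteins, had 4017, 2930, 2743 and 1684 at 9 hpf, against 9, 4, 0 and 0 at 5 hpf, a log2 difference of 10.00 ± 0.63 (limma adjusted p = 4.71e-10). The homeobox repressor genes ventx2.2.S and ventx2.1.S differed by 9.70 ± 0.66 and 9.29 ± 0.65 (adjusted p = 1.89e-09 and 2.61e-09). On beads at 5 hpf, foxh1.2.L, ventx2.2.S and ventx2.1.S were at 0 in replicates 3 and 4, whose bead zeros are less certain. They passed the filter only through later times. The size and p of their differences rest on the log2(value + 1) scale and are uncertain. The Wnt effector ctnnb1.L differed by -0.15 ± 0.25 (adjusted p = 0.761), and sall4.L, a zinc finger factor, by 0.65 ± 0.15 (adjusted p = 0.00819), under 2-fold. Against flowthrough RNA at 9 hpf, 34 of 74 partner rows were higher on beads and 4 lower, with a median of 0.94 beside -0.69 over all genes, of which 9.35% were called higher and 18.9% lower. The lower rows were zic2.S, klf4.L, klf5.L and smad2.S.

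Among chromatin cofactors, of 30 tested cofactor rows, 2 were higher on beads at 9 than at 5 hpf and 0 lower (median 0.24), near the 5.83% of all genes called higher. They were brd2.S, a bromodomain protein, at 1.86 ± 0.37 (limma adjusted p = 0.00155), and smarce1.S, a chromatin remodeller subunit, at 1.03 ± 0.24 (adjusted p = 0.00668). The acetyltransferase ep300.L, at 0.79 ± 0.11, had an adjusted p of 3.02e-05 and was under 2-fold. Against flowthrough RNA at 9 hpf 2 cofactor rows were higher and 0 lower, brd2.S at 2.21 ± 0.28 and ep300.L at 1.14 ± 0.08 (limma adjusted p = 1.71e-07 and 1.27e-12), and smarce1.S at 0.56 ± 0.19 was under 2-fold (adjusted p = 0.0256). Of 12 tested rows of other POU genes, 1 was higher, pou3f2.L, a neural POU factor, at 4.58 ± 1.18 (adjusted p = 0.0157), with 94, 88, 34 and 68 at 9 hpf, against 6, 8, 0 and 0 at 5 hpf. It passed the filter only through later bead times, so the size and p of its difference are uncertain. The ubiquitous factor pou2f1.L had 3892, 3588, 3553 and 3613 at 9 hpf, against 3613, 3360, 2510 and 2826 at 5 hpf, a log2 difference of 0.26 ± 0.15 (adjusted p = 0.297), and pou2f1.S_gene1877 differed by 0.55 ± 0.19 (adjusted p = 0.0833). Against flowthrough RNA at 9 hpf, 4 of the 12 POU rows were higher on beads (pou2f2.L, pou3f2.L, pou3f3.S and pou4f1.L) and 0 lower, beside 9.35% and 18.9% of all genes. Among these, pou4f1.L reached at most 22 in any library, and the size and p of its difference are uncertain. The 1 call of 12 POU rows on beads between 9 and 5 hpf is near the 5.83% of all genes. Of 17 tested egg and early embryo marker rows, 0 were higher and 2 lower (btg4.L and btg4.S) between 9 and 5 hpf on beads. Of all genes, 5.83% were called higher and 1.43% lower there. Against flowthrough RNA at 9 hpf 0 of the marker rows were higher and 7 lower, beside 9.35% and 18.9% of all genes. The 7 were ccnb2.L, ccnb2.S, zar1l.S and rows that share the symbol gdf1.L. By limma, 0 of the 2 tested follicle, ovary and blood marker rows (amh.S and star.L) were called in either comparison.

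The genes on either side of the clusters were not called on beads. To the left stand fut7.L and clic3.S, and to the right npdc1.1.L and npdc1.1.S. Between 9 and 5 hpf on beads, npdc1.1.L differed by -3.15 ± 1.41 (limma adjusted p = 0.189), clic3.S by -1.86 ± 1.26 (adjusted p = 0.41) and npdc1.1.S by -0.69 (adjusted p = 0.756), while fut7.L, with a mean of 2.25 at 9 hpf and 0 at 5 hpf, was too low to be tested.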

How the data were processed

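The authors deposited a score for each gene and library: DESeq2-normalized read numbers rounded to whole numbers, from Salmon 0.12.0 quantification, per the submitters' processing notes. Neither a build nor an annotation is named in the labels or the file. Read depth is unknown, since the sums of normalized values are not read totals. The table held 54 library columns and 1 empty column, which was not used.

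Values were analysed as log2(value + 1) with limma 3.58.1 (trend, robust; R 4.3.3) in separate fits of bead, flowthrough, bead with flowthrough, and total with egg libraries, each with the experiment as a term, and the bead with flowthrough fit also with an experiment by fraction term. Genes needed a value of at least 10 in as many libraries as the smallest group; p-values were Benjamini-Hochberg adjusted over all genes tested. Ratios of pou5f3 genes were compared by 2-sided exact permutation tests. Alternatives were a pseudocount of 10, no filter, quantile normalization, each experiment alone, no experiment term, a replicate block and leaving out each replicate.

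All pou5f3 rows are described; the 4 most alike genes per pou5f3 gene by Pearson's r, and up to 3 called (by adjusted p) and 2 uncalled (by mean) members of each list, are named by rule, except 1 uncalled cofactor that is not reported here. Members and lists were chosen with earlier results of these data known. Same-numbered libraries, which are clutches of an experiment per the series' design text, deviated together between beads and flowthrough (r = 0.152 to 0.788 across 14404 genes) and over time in flowthrough (0.707 to 0.839) and total RNA (0.768 to 0.808). Promoter and protein sequences were not used here. All 6 genes matched RefSeq by symbol.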

Additional observations from a re-analysis of the deposited data

Results flagged for a closer look

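The bead to flowthrough difference of 4 pou5f3 genes changed between 9 and 5 hpf by the test of the change itself, which called 4.6% of all genes higher and 0.162% lower. The log2 change was 5.1914 for pou5f3.1.L, 5.727 for pou5f3.1.S, 4.5425 for pou5f3.2.L and 5.4786 for pou5f3.2.S (limma adjusted p = 0.0207, 0.00371, 2.58e-10 and 7.44e-07). For pou5f3.1.S its size and p rest on flowthrough values near 0 and are uncertain.

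Chance meets Dixon's criterion in about 1 group of 20 when values are continuous. That rate does not hold where 3 of 4 libraries are at 0, since any value above 0 then stands apart. In 4 of 66 groups of 4 libraries, 1 library stood apart from the other 3 by this criterion. These were pou5f3.1.S on beads at 6 hpf, where replicate 1 had 1 and the others 0; pou5f3.1.S in flowthrough RNA at 6 hpf, where replicate 4 had 5 and the others 0; pou5f3.3.L in flowthrough RNA at 9 hpf, where replicate 4 had 2622 and the others 3118 to 3204; and pou5f3.3.S in flowthrough RNA at 8 hpf, where replicate 3 had 1662.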

How the results depend on the processing

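The read depth behind the values is unknown, and the lowest genes, both copies of pou5f3.1 at 5 hpf, are set by a few zeros. The cause of the changes below was not tested, except where fewer libraries make them. On the log2 scale and with limma's adjusted p, experiment 2 alone gave 6.10 (0.263) for pou5f3.1.L and 5.47 (0.309) for pou5f3.1.S between 9 and 5 hpf on beads, 0.081 for pou5f3.3.S there, and 4.27 (0.0847) for pou5f3.1.L and -1.51 (0.0228) for pou5f3.3.S between beads and flowthrough at 9 hpf. For the change of that difference, pou5f3.1.L had 5.68 in experiment 1, 4.70 in experiment 2 and 5.19 (0.0661) with no experiment term, and pou5f3.1.S 3.68 in experiment 2. Experiment 1 alone gave -0.061 for pou5f3.1.L in flowthrough RNA between 9 and 5 hpf, -0.059 for pou5f3.2.L between beads and flowthrough at 5 hpf and 0.042 for pou5f3.3.S at 9 hpf. Quantile normalization moved the median of all genes between beads and flowthrough at 9 hpf to -0.28, against -0.69. It gave -1.09 (3.48e-07) for pou5f3.3.L there, -0.018 for pou5f3.3.L between 9 hpf and eggs, and 1.58 (0.0469) for pou5f3.2.S in flowthrough RNA between 9 and 5 hpf. The replicate block gave 1.41 (3.66e-07) for the last, and the L copy of pou5f3.2 at 7 against 5 hpf in total RNA was called under it (0.0182). It changed no other limma call of a pou5f3 gene printed here. In bead RNA over time the numbers did not pair the libraries throughout, with a lowest r of 0.0789.

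For ratios, the block left 0 of the 16 calls against pou5f3.3, and gave -2.02 and -1.56 (adjusted p = 0.197 both) for the copies of pou5f3.2, since 4 pairs cannot pass. Leaving out any replicate also left 0 of 16, since 3 against 3 cannot pass, and gave -2.39 to -1.75 on beads and -1.86 to -1.24 against flowthrough for these copies. A pseudocount of 10 called 3 of the 8 ratios of pou5f3.1 to pou5f3.2. The copies of pou5f3.1 on beads had 0.54 with that pseudocount, 0.63 in experiment 2, and -0.62 to 0.82 with 1 replicate left out. The copies of pou5f3.3 between beads and flowthrough had -0.63 in experiment 1 and -0.26 to 0.38 with 1 left out.

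Leaving out 1 replicate at a time, the change between 9 and 5 hpf on beads ran over 4.72 to 6.84 for pou5f3.1.L, 5.34 to 6.80 for pou5f3.1.S and -0.16 to 0.014 for pou5f3.3.S. The change of the bead to flowthrough difference ran over 4.45 to 6.21 for pou5f3.1.L and 4.90 to 7.40 for pou5f3.1.S. The bead to flowthrough difference of pou5f3.3.L at 5 hpf ran over -0.36 to 0.033, and the flowthrough change of pou5f3.2.S over 1.19 to 1.71. In total RNA between 9 and 5 hpf the ranges were 4.20 to 7.03 (pou5f3.1.L), 6.12 to 7.63 (pou5f3.1.S), 3.58 to 4.29 (pou5f3.2.L) and 5.57 to 6.81 (pou5f3.2.S). All 4 total RNA calls were lost without replicate 1 or 2, which leaves 1 library at each later time, assumed to vary like the other groups. Between 9 hpf and eggs they were 6.21 to 9.54, 6.27 to 9.44, 2.89 to 3.64 and 6.01 to 7.60 for the same genes, and -0.10 to 0.027 for pou5f3.3.S. Between 5 hpf and eggs they were -0.61 to 2.56 for pou5f3.1.S and -0.18 to 1.41 for pou5f3.2.S.

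Over all genes, calls on beads between 9 and 5 hpf were 1208 higher and 296 lower, with 245 to 1771 higher and 63 to 562 lower over the alternatives. Calls between beads and flowthrough at 9 hpf were 2014 higher and 4075 lower, with 81 lower in experiment 1 alone, 1448 to 2775 higher over the alternatives and 2204 lower after quantile normalization. In flowthrough RNA they were 39 higher and 759 lower between 9 and 5 hpf, with 12 to 127 higher and 265 to 1045 lower.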

Other observations

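The opposite clutch order of the pou5f3.2 copies in flowthrough RNA was part of a wider pattern of values. Across 14404 genes, the log2 difference between replicates 1 and 2 (experiment 1) ran with that between replicates 3 and 4 (experiment 2), with Pearson's r of 0.654 to 0.827 over the 5 times in flowthrough RNA and 0.825 in total RNA at 5 hpf. Genes are not independent replicates, and whether clutches of the experiments share a parent is not given in the sources used here.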
